A study of Mus musculus with 2 samples.

Results

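SWI/SNF complexes, also called BAF complexes, use the energy of ATP to slide or evict nucleosomes and so open stretches of chromatin. Each complex carries 1 of a pair of ATPases and a core of scaffold subunits, and most forms also have a subunit with an AT-rich interaction domain (ARID) that sets the form of the complex: Arid1a or Arid1b in canonical BAF, and Arid2 in the polybromo form, PBAF. In the blood system these complexes are known for their part in stem cell maintenance and in the choice of lineage. The 10 genes described here are Smarca2, Smarca4, Smarcb1, Smarcc1, Smarcc2, Smarcd2, Smarce1, Arid1a, Arid1b and Arid2, out of 21360 genes that could be named on the array. They were taken by symbol, with every non-control probe whose transcript accession belongs to one of them, which gave 19 probes.

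Expression was measured in LSK cells, bone marrow cells that are negative for lineage markers and positive for Sca-1 and c-kit and include hematopoietic stem cells and early progenitors. One group was nondiabetic C57BL/6J mice, and the other was C57BL/6J mice made diabetic with streptozotocin (STZ), a toxin that destroys the insulin-producing cells of the pancreas. The labels give female mice in both groups, 3 mice and 8.3 ng of total RNA per array, and no age, whereas the paper's text speaks of male mice in its experiments with STZ. Each group is represented by 1 one-colour Agilent array, so every difference between the groups lacks a replicate check and was not tested, and the spread between mice is not known. In RNA from a sorted fraction, fewer cells of a type and less RNA per cell cannot be told apart.

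Intensities below are the scanner software's processed signals before scaling. Log2 ratios are diabetic over nondiabetic after each array was scaled to its 75th percentile (168 in nondiabetic and 182 in diabetic). The ± beside a log2 ratio is the error that the software assigns to the 2 spots, propagated to the ratio, and is not a spread between animals. Both arrays were on 1 slide and were read in 1 scan. On the arrays, 62.7% of the non-control spots in nondiabetic and 63.9% in diabetic were well above background by the software's flag. The gate markers Kit and Ly6a and all 6 early progenitor markers examined were well above background on both arrays. By the brightest probe, 1 of these 8, Mecom, was more than 2-fold lower in diabetic mice (log2 ratio -1.20). The dimmer probe of Mecom read 41.0 in nondiabetic and 39.9 in diabetic, a log2 ratio of -0.16. Of 12 genes on the arrays taken as markers of mature blood, endothelial, stromal and islet cells, 7 were well above background on both arrays by their brightest probe. Another 2 were so on 1 array and 3 on neither. The summed intensity of these 12 genes was 37555 in nondiabetic and 41667 in diabetic. Most of it came from the brightest probe of Itgam, with 34686 and 35189. The other 2 probes of Itgam were far dimmer. They read 284 and 142 (log2 ratio -1.12), and 111 and 49.2 (log2 ratio -1.30). Hba-a1 had a log2 ratio of 1.21, Pecam1 one of 2.41 and Ins1 one of -1.76, Cd3g was at least 2.74-fold lower in diabetic mice, and Cdh5, Col1a1 and Ms4a1 were not well above background on either array. Whether the RNA of these genes, Pecam1 among them, came from such cells or from LSK cells was not tested. The part of such cells in the values below was not tested either.

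RNA of all 10 SWI/SNF genes was detected in LSK cells of both groups. All 19 probes were well above background in diabetic mice and 18 in nondiabetic mice. None of their spots was saturated or marked as an outlier. Of the 19 probes, 3 were at least 2-fold higher in diabetic mice, 2 were at least 2-fold lower and 14 lay within 2-fold. Among all 37791 probes with a ratio or a bound, 11.2% passed 2-fold upward and 11.2% downward. With no scaling between arrays, which moved the median log2 ratio of all probes from -0.01 to 0.11, the counts were 5 higher and 1 lower, beside 13.0% and 9.61% of all probes. With normexp background correction they were 1 and 0, beside 3.31% and 3.35%. The 5 probes past 2-fold belong to Arid2, with 2 higher probes, Smarce1, with 1 higher, and Arid1a and Arid1b, with 1 lower each. Of the 19 log2 ratios, 9 were above 0 and 10 below.

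**Figure D1:**
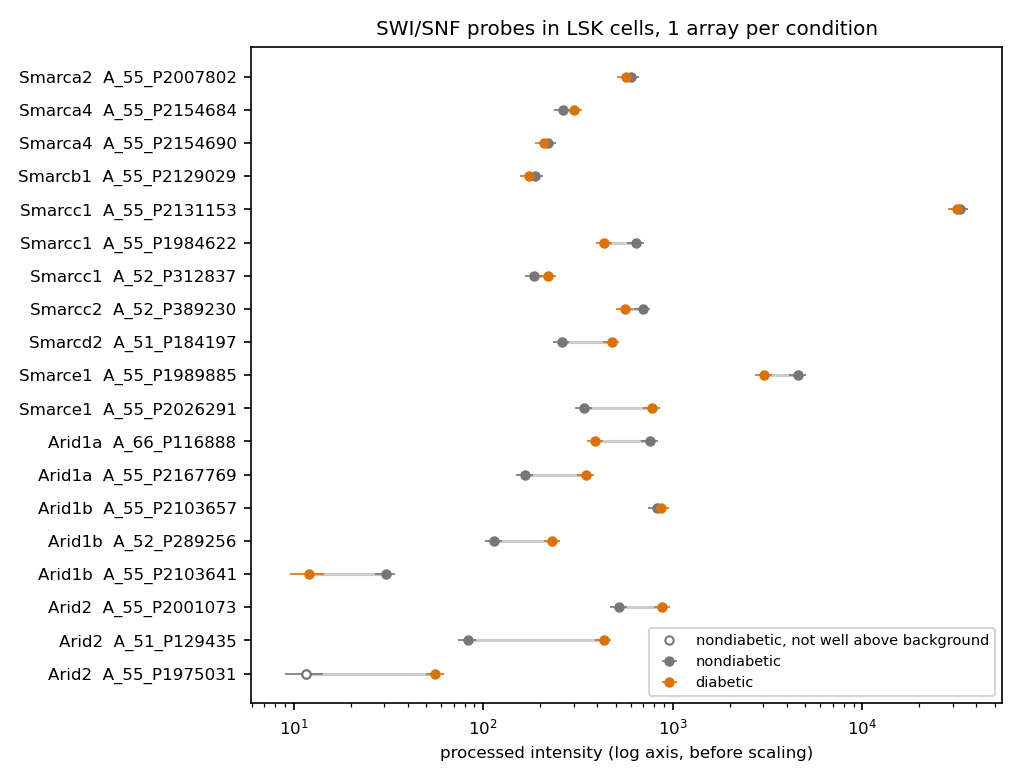
Processed intensity (log axis, before scaling) of the 19 SWI/SNF probes on the nondiabetic (grey) and the diabetic (orange) array, with bars for the software's error of each spot. The widest gaps are those of Arid2 probes A_51_P129435 and A_55_P1975031, and the open circle is the 1 value that was not well above background.

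By the brightest probe of each gene, 0 of the 10 genes passed 2-fold upward in diabetic mice, 1 (Arid1a) passed it downward and 9 lay within 2-fold. Among all 15192 named genes with a ratio or bound, 11% passed 2-fold upward and 10.1% downward. The median log2 ratio of the 10 genes was -0.19, beside 0.02 for all named genes, whose middle part (25th to 75th percentile) ran from -0.41 to 0.47. Only Smarca4, Smarcd2 and Arid2 had brightest probes above 0, to which Arid1b was added with no scaling. Arid1a did not pass 2-fold with no scaling, at -0.95, or with normexp, at -0.90. When the probes of a gene were averaged, Arid2 was the only gene past 2-fold. Its mean was 1.68, in which 1 of its 3 probes entered with a bound, and Arid1a stood at -0.061.

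The ATPases were close to even between the groups. Smarca4, which encodes BRG1, read 263 in the nondiabetic and 302 in the diabetic sample on its brighter probe (A_55_P2154684), a log2 ratio of 0.08 ± 0.20. Its other probe (A_55_P2154690), assigned to another transcript of the gene, read 219.5 and 209, a log2 ratio of -0.19 ± 0.21. Smarca2, which encodes BRM, the alternative ATPase, had 601 and 565 on its single probe (A_55_P2007802), a log2 ratio of -0.20 ± 0.20. The log2 ratios of all 3 ATPase probes lay within 2 times the spot error of 0.

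Among the core subunits, most values were lower in diabetic mice by less than 2-fold. Smarcb1 (A_55_P2129029), which encodes the subunit that contacts the face of the nucleosome and acts as a tumour suppressor, read 188 in the nondiabetic and 174 in the diabetic sample, a log2 ratio of -0.23 ± 0.21. Smarcc2 (A_52_P389230), one of a pair of scaffold subunits, read 694 and 559, a log2 ratio of -0.43 ± 0.20. The other scaffold gene, Smarcc1, was read by 3 probes. Its brightest probe (A_55_P2131153) read 32809 and 31563, a log2 ratio of -0.17 ± 0.20. The second (A_55_P1984622) read 639 and 437, a log2 ratio of -0.67 ± 0.20, and the third (A_52_P312837) read 185 and 219.5, a log2 ratio of 0.13 ± 0.21. All 3 probes of Smarcc1 thus stayed within 2-fold, with both signs present. The log2 ratios of Smarcb1 and of the brightest and the third probe of Smarcc1 lay within 2 times the spot error of 0.

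Smarcd2 and Smarce1 included the higher values of the core. Smarcd2 (A_51_P184197), whose product is needed for the maturation of granulocytes, read 259 in the nondiabetic and 476 in the diabetic sample, which is 1.69-fold higher and a log2 ratio of 0.76 ± 0.20. It has no second probe here to set beside this value. Smarce1, which encodes a DNA-binding subunit with an HMG box, had 2 probes with opposite directions. The brighter (A_55_P1989885) read 4586 and 3039, a log2 ratio of -0.71 ± 0.20, and the other (A_55_P2026291) read 341 and 778, a log2 ratio of 1.07 ± 0.20. The mean of both was 0.18. Under normexp the second probe was at 0.94, short of 2-fold.

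**Figure D2:**
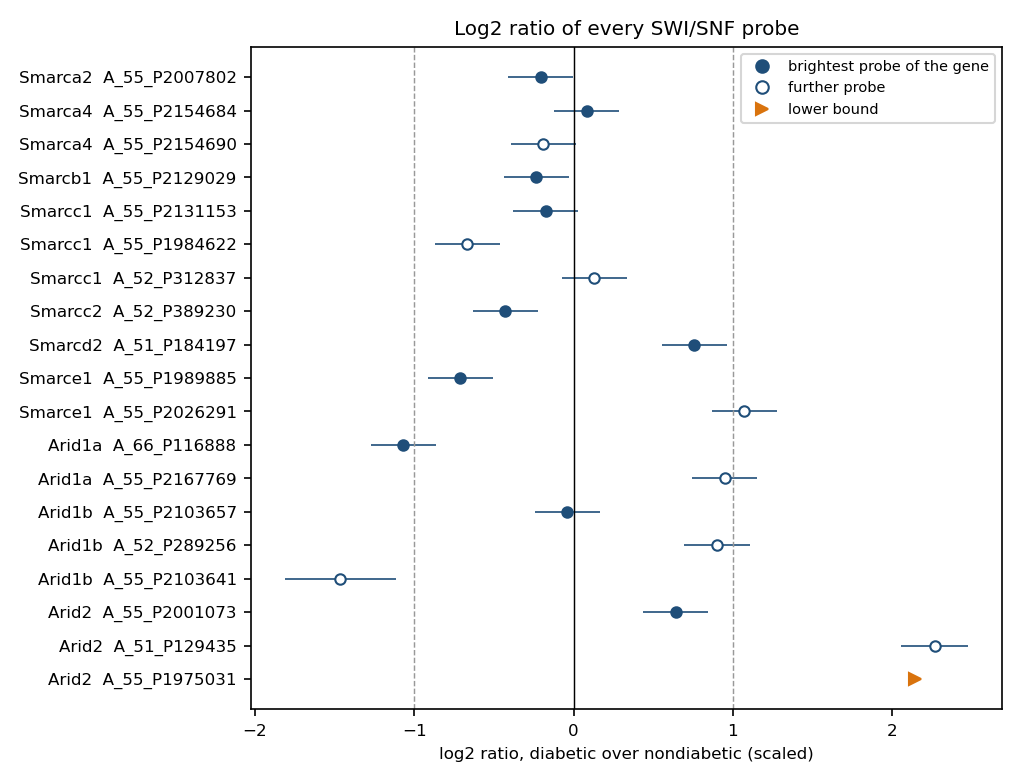
Log2 ratio of diabetic over nondiabetic for every SWI/SNF probe, scaled to each array's 75th percentile, with bars for the error propagated from the software's spot errors. Dashed lines mark 2-fold, filled circles the brightest probe of each gene, and the triangle the probe that was given a bound. Arid2 is the gene with several probes whose probes all lie above 0.

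Of the 5 probes past 2-fold, 4 were probes of the ARID subunits. Of the 19 probes, Arid1a has 2, Arid1b 3 and Arid2 3, and over all probes 11.2% passed 2-fold upward and 11.2% downward. Under normexp only the Arid2 probe A_51_P129435 among these 4 still had a ratio or bound past 2-fold, at 1.71. Arid1a encodes the ARID subunit of canonical BAF that is often lost in tumours. Its brighter probe (A_66_P116888) read 757 in the nondiabetic and 391 in the diabetic sample, which is 2.10-fold lower and a log2 ratio of -1.07 ± 0.20. Its other probe (A_55_P2167769) read 166 and 348, which is 1.93-fold higher and a log2 ratio of 0.95 ± 0.21. Both probes carry the same transcript accession, and their ratios lay 4.05-fold apart.

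Arid1b, the paralog that takes the place of Arid1a in other BAF complexes, was read by 3 probes of 1 transcript. The brightest (A_55_P2103657) read 824 in the nondiabetic and 869 in the diabetic sample, a log2 ratio of -0.04 ± 0.20, which was 0.08 with no scaling. The second (A_52_P289256) read 115 and 232, a log2 ratio of 0.90 ± 0.21. The third (A_55_P2103641) read 30.6 and 12.1, a log2 ratio of -1.46 ± 0.35. It was the dimmest of the SWI/SNF probes measured on both arrays. Its raw spot medians were 70 and 50 over local backgrounds of 30 and 26, and under normexp its log2 ratio was -0.43.

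Arid2, which encodes the ARID subunit of PBAF, was higher in diabetic mice on all 3 of its probes, which carry the same transcript accession. The brightest (A_55_P2001073) read 521 in the nondiabetic and 881 in the diabetic sample, which is 1.56-fold higher and a log2 ratio of 0.64 ± 0.20. The second (A_51_P129435) read 82.7 and 432, which is 4.81-fold higher and a log2 ratio of 2.27 ± 0.21. Its raw spot medians were 116 and 436 over local backgrounds of 37 and 27.

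The dimmest Arid2 probe (A_55_P1975031) had 55.9 in diabetic mice and 11.7 in nondiabetic mice, where it was not well above background. Its nondiabetic reading still lay above the lowest one well above background on that array (10.2). The bound of this probe is therefore the plain ratio of its readings after scaling, 4.41-fold higher in diabetic mice and a log2 ratio of 2.14 ± 0.36. Of all probes with a ratio or bound, 1.96% had a log2 ratio as high as that of A_51_P129435, 2.35% as high as the bound of A_55_P1975031 and 18.4% as high as that of A_55_P2001073. The direction of the 3 probes was the same under every alternative that gave them a value. All alternatives process the same spots, so this is no replicate check of the direction. Under normexp the log2 ratios of A_55_P2001073 and A_51_P129435 were 0.64 and 1.71, and the bound of A_55_P1975031 was 0.63. Only the value of A_51_P129435 passed 2-fold there. The 2 probes measured on both arrays lay 3.08-fold apart from each other, so the size of the difference in Arid2 depended on the probe.

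The 6 SWI/SNF genes with several probes were then compared probe against probe, as a check within each gene. In 5 of them (Smarca4, Smarcc1, Smarce1, Arid1a and Arid1b) measured probes had log2 ratios of opposite sign, whereas 48.9% of all 3245 genes with several measured probes did so. Among the 4 genes with 2 measured probes, those of Arid1a, Smarce1 and Arid2 lay more than 2-fold apart, and those of Smarca4 only 1.21-fold. Among all 2705 genes with 2 measured probes, 31.8% had probes more than 2-fold apart. Of the 2 genes with 3 measured probes, Arid1b spanned 5.14-fold and Smarcc1 1.74-fold, and among all 457 such genes 53% spanned more than 2-fold. For the SWI/SNF genes these counts were 3 of 4 and 1 of 2, and no test was made on so few genes. Such distances were also seen outside the 10 genes. Of 7 genes of other chromatin remodellers with several measured probes, 6 had probes more than 2-fold apart. Of 2 such genes among the other SWI/SNF subunits, 1 did. What separates the probes of these genes was not tested.

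**Figure D3:**
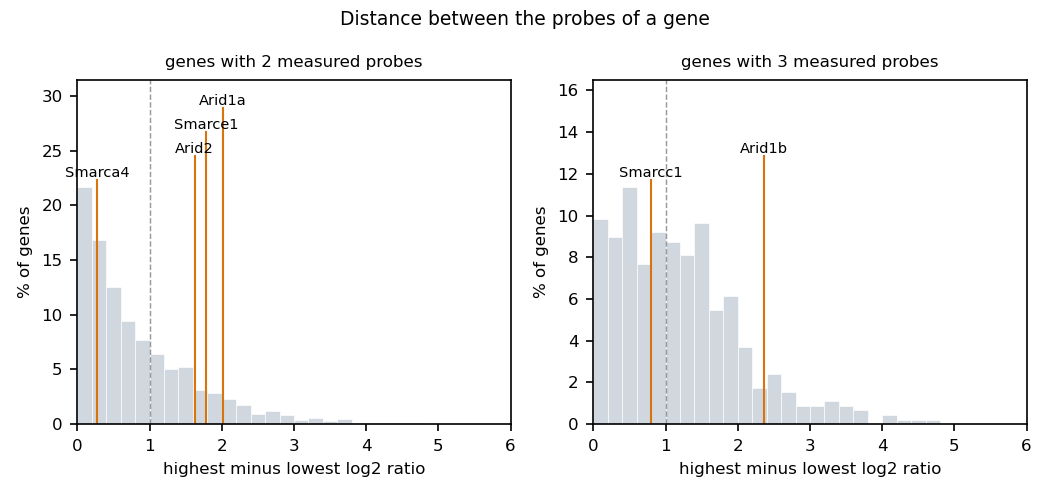
Distance between the highest and the lowest log2 ratio of the measured probes of a gene, for genes with 2 (left) and 3 (right) measured probes. Bars give the share of all such named genes (spans over 6 in the last bar), lines the 6 SWI/SNF genes, and the dashed line 2-fold. Arid1a, Smarce1, Arid2 and Arid1b lie beyond it, and Smarca4 and Smarcc1 below it.

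The differences were also read against brightness, since dim probes vary more. With all probes measured on both arrays ranked by mean signal and cut into 3 groups of equal size, 11 of the SWI/SNF probes were in the bright group, 6 in the middle and 2 in the dim group. Past 2-fold were 2 of the 11 bright probes (Arid1a A_66_P116888 and Smarce1 A_55_P2026291), 1 of the 6 middle ones (Arid2 A_51_P129435) and both dim ones (Arid1b A_55_P2103641 and Arid2 A_55_P1975031). Among all probes with a ratio or bound, 7.37% of the bright, 24.0% of the middle and 31.3% of the dim probes were past 2-fold in either direction. Each SWI/SNF probe was printed once, so the spread between spots comes from 237 other probes printed at least 5 times, where the log2 ratios of the spots of a probe had a median SD of 0.065 in the bright, 0.13 in the middle and 0.25 in the dim group. Of the 18 measured SWI/SNF probes, 11 had a log2 ratio more than 2 times the software's error away from 0, beside 44.0% of all 32251 measured probes printed once.

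**Figure D4:**
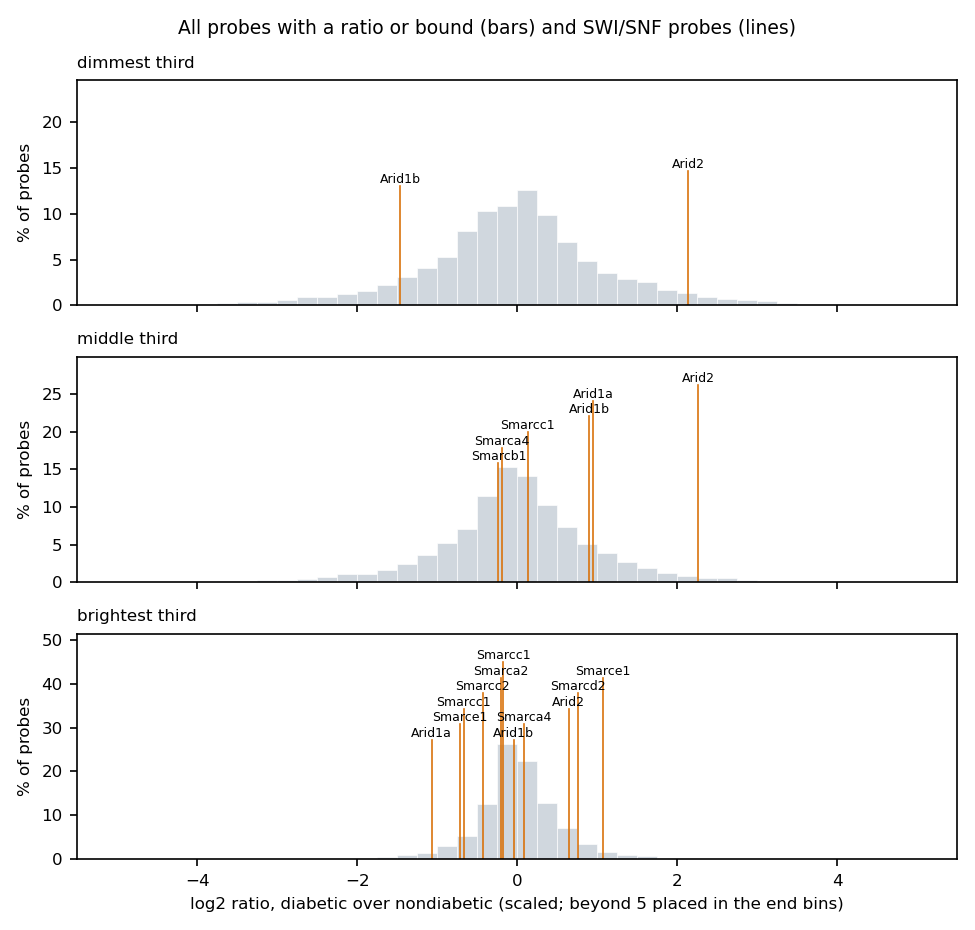
Share of all probes with a ratio or bound (bars, in %) by log2 ratio of diabetic over nondiabetic, in 3 groups by brightness, with the 19 SWI/SNF probes as lines labelled by gene. In the brightest group the lines for Arid1a at -1.07 and Smarce1 at 1.07 lie in the thin outer parts of the distribution, and in the middle group that for Arid2 at 2.27 does.

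The other 19 subunit genes of the BAF, PBAF and GBAF complexes gave the setting for these values. All were on the arrays, 18 had a ratio or bound by their brightest probe, 2 passed 2-fold upward in diabetic mice and 2 downward, beside the 11% and 10.1% of all named genes given above. Their median log2 ratio was -0.065, which lies closer to 0 than the shift of 0.12 that the scaling itself makes. The partners of Arid2 in PBAF had brightest probes above 0 and within 2-fold, where the median log2 ratio of all named genes was 0.02. Phf10 read 631 in the nondiabetic and 1130 in the diabetic sample, a log2 ratio of 0.72, Pbrm1, the polybromo subunit, had 0.50, and Brd7 had 0.16. Under normexp Phf10 was at 0.58, Pbrm1 at 0.35 and Brd7 at 0.18. Whether these genes move with Arid2 was not tested. The dimmer probe of Pbrm1 (A_55_P2042277) went the other way, with 22.7 in nondiabetic mice, and was at least 2.45-fold lower in diabetic mice.

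Among the paralogs of Smarcd2, Smarcd3 had a log2 ratio of 0.69, and Smarcd1 had 14.3 in nondiabetic mice and was at least 1.54-fold lower in diabetic mice. Around the ATPases, Actb had a log2 ratio of 0.12, Ss18 one of -0.02 and Actl6a one of -0.66, while Bcl7b read 553 in the nondiabetic and 263 in the diabetic sample, a log2 ratio of -1.19. Dpf2, a histone-binding subunit of canonical BAF, had -0.20, and its paralog Dpf3 was at least 2.24-fold higher, with 24.8 in diabetic mice. In GBAF, the form without an ARID subunit, Bicra read 64.9 and 199.0, which is 2.83-fold higher, and Brd9 had 39.1 in nondiabetic mice and was at least 4.22-fold lower in diabetic mice. The probes of Bicral, the paralog of Bicra, named after its values were seen, had log2 ratios of -0.84 and 1.51. The 4 genes past 2-fold, Bicra, Dpf3, Bcl7b and Brd9, were each represented by a single probe with a ratio or bound, and under normexp only Bcl7b passed 2-fold, at -1.08, while Bicra stood at 0.96.

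**Figure D5:**
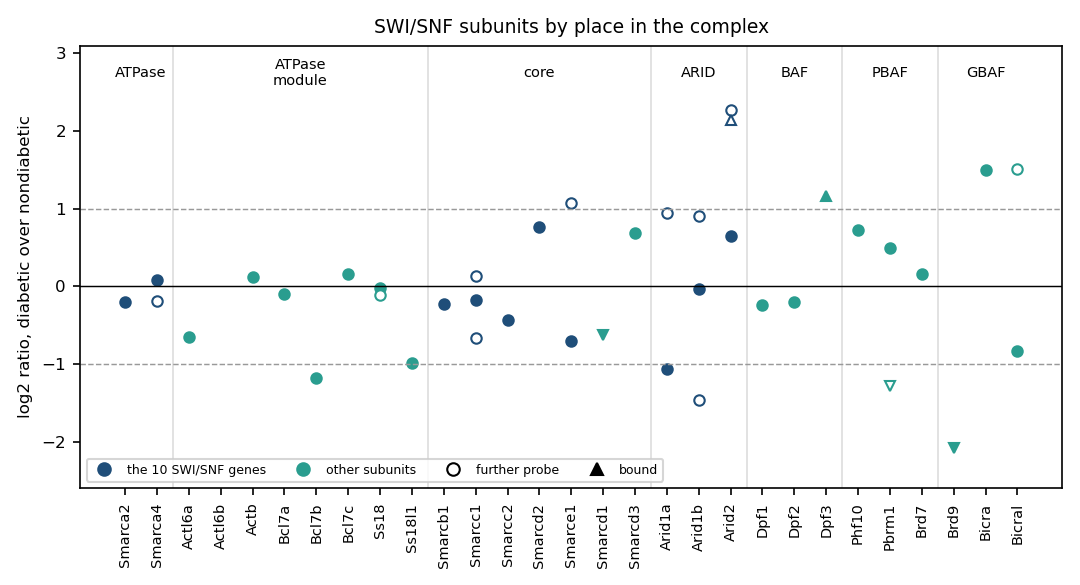
Log2 ratio of diabetic over nondiabetic for the probes of the 10 SWI/SNF genes (blue) and of the other subunit genes (green), ordered by their place in the complexes. Filled symbols are the brightest probe of a gene, triangles are bounds, dashed lines mark 2-fold, and Actl6b has no ratio. The ATPases lie near 0 and the probes of Arid2 lie above it.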

How the data were processed

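LSK cells from nondiabetic and STZ-induced diabetic mice were measured on 1 array each. Per the file headers, the deposited intensities came from Agilent Feature Extraction 11.5.1.1, which subtracts the background within an array, and the grid refers to mm9. No genome coordinates were used. The normalization between arrays is not given in the sources used here, and the authors' value table equals the processed intensity times a constant per array.

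Intensities were taken to log2 and scaled by subtracting the 75th percentile of each array over 59305 non-control spots. Outlier spots on either array were left out, and spots of a probe were averaged. Transcript accessions, without versions, were matched to RefSeq (GRCm38.p6), which named 53.7% of these spots. A probe well above background on a single array was given a bound, taken against whichever was larger on the dim array, the probe's own value or the lowest one well above background there (10.2 in nondiabetic, 10.1 in diabetic). The brightest probe stood for a gene, and 2-fold was the limit for counts. No test was made, and precision is limited by the number of arrays. The genes, lists and limits were chosen with earlier results of these data known. Named are the 10 genes with every probe, other subunits and remodellers whose brightest probe passed 2-fold, and Smarcd1, Smarcd3, Pbrm1, Brd7, Phf10, Actb, Actl6a, Dpf2 and Ss18. The alternatives were normexp (offset 50, on median spot signals, since the files hold no means), quantile, loess, median centring, no scaling, no filter on dim probes, a filter that asks for detection on both arrays, the authors' values, outliers kept, and the mean or median over a gene's probes. One marker gene is not reported here. The steps from spots to scaled log2 ratios per probe were first tested on simulated data, and the later steps were not. Python 3.11.15, numpy 2.4.6, pandas 2.3.3, matplotlib 3.10.9, R 4.3.3 and limma 3.58.1 were used.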

Additional observations from a re-analysis of the deposited data

How the results depend on the processing

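Of the alternatives, quantile normalization, loess, median centring, the authors' values, keeping outliers and leaving out the filter on dim probes moved all 19 SWI/SNF probes by less than their spot error. Normexp, which adds an offset of 50, moved 4 of them by more. Under normexp, 1 SWI/SNF probe was at least 2-fold higher and 0 lower, 0 SWI/SNF genes were lower, and 0 other subunit genes were higher and 1 lower. Over all probes, 4215 higher and 4235 lower became 1243 and 1259 under normexp, and 6482 and 6424 with no filter. With no scaling, 5 SWI/SNF probes were higher, 1 was lower, and 0 genes were lower. With the mean over a gene's probes, and likewise with the median, 1 SWI/SNF gene was higher and 0 lower. The median log2 ratio of the 10 genes was then -0.057 with the median over probes, and lay between -0.20 and -0.072 under the other alternatives. With only probes detected on both arrays, 1 other subunit gene was higher and 1 lower. The number of SWI/SNF genes with probes more than 2-fold apart was 4 under normexp, quantile normalization, loess, no filter and outliers kept, a comparison added after the data were seen. No paired analysis was possible because there was a single array for each condition, and no replicate could be left out. Signal over background limits the dim probes of Arid1b and Arid2 most.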

Other observations

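ATPases and partners of other chromatin remodellers, among them the ISWI, CHD and INO80 families, were read by the same steps. Of 25 such genes, 24 had a ratio or bound by their brightest probe, 2 passed 2-fold upward in the diabetic sample, 1 passed it downward and 21 lay within 2-fold, with a median log2 ratio of -0.12. Among all named genes 11% passed 2-fold upward and 10.1% downward. Smarcad1, a remodeller linked to DNA repair, read 32.2 in the nondiabetic and 224 in the diabetic sample, a log2 ratio of 2.68 on its single probe. Pole3, a histone-fold partner of ISWI complexes, had 77.5 in diabetic mice and 10.6 in nondiabetic mice, where it was not well above background. Its bound, the plain ratio of these readings after scaling, was 6.76-fold higher in diabetic mice. Smarca1, an ISWI ATPase, had 70.4 in nondiabetic mice and was at least 7.60-fold lower in diabetic mice.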
